A study of Mus musculus with 12 samples.

Results

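Transcripts of 6 enzymes that methylate small molecules, *Nnmt*, *Inmt*, *Hnmt*, *Gamt*, *Tpmt* and *Pemt*, were followed through 12 libraries of im-TEC, tubular epithelial cells of the mouse kidney that divide only under permissive conditions. The 6 genes were chosen by name and were found by symbol among the 55487 genes of the deposited count table. The line carries SV40 large T antigen and was kept at 33 °C with interferon-gamma, then at 37 °C without it for 7 days before seeding, and every group shares this history. The 4 groups had 3 libraries each and differed only in what was added for 48 h, which was nothing in the control group, 50 µM of the NNMT inhibitor (NNMTi) 5-amino-1-methylquinolinium, 10 ng/mL of TGFβ, or both agents together, called the combined group. Libraries were made from 100 ng of total RNA with the QuantSeq 3′ FWD kit, which reads the end of each transcript, so a level in CPM, the count scaled to the size of its library, does not grow with gene length. The design asks what TGFβ changes, what the inhibitor changes, and whether the inhibitor acts differently when TGFβ is present.

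All 6 enzymes take the methyl group of S-adenosylmethionine and release S-adenosylhomocysteine, and they differ in what receives it. NNMT methylates nicotinamide to 1-methylnicotinamide, INMT methylates tryptamine and other indoleamines and, in the mouse, thioethers, HNMT inactivates histamine, GAMT makes creatine from guanidinoacetate, TPMT methylates thiopurine drugs, and PEMT turns phosphatidylethanolamine into phosphatidylcholine, a reaction best known from the liver. The inhibitor blocks the NNMT enzyme, and the libraries measure transcripts, not enzyme activity.

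The libraries held 2584117 to 11866903 counts in genes, the shallowest being TGFβ replicate 3. The line showed a tubular pattern in part only. Of 11 proximal tubule markers, *Lrp2*, *Aqp1* and *Mme* were abundant, whereas *Slc34a1*, *Slc5a12*, *Hnf4a* and *Slc22a6* had 0 counts in all controls. Of 14 loop and distal tubule markers, the general tubular ones *Cdh16*, *Pax8* and *Pax2* had 5782, 6003 and 7887 counts in the controls. *Krt8* had 1701, *Krt7* 152 and *Krt18* 19. Of the others, *Slc12a1* had 9, *Slc12a3* 3, *Aqp2* and *Cdh1* 1 each, and *Umod*, *Calb1*, *Pvalb* and *Epcam* 0. Of 10 fibroblast markers 3, *Pdgfra*, *Lum* and *Thy1*, were at 0 in every library, whereas *Postn*, *Islr* and *Col1a1* had 1940, 938 and 122 counts in the controls. The labels do not tell whether replicates were separate cultures, and p-values therefore rest on the spread between these libraries, which may be technical.

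In the control cells *Inmt* was the most abundant of the 6 transcripts and supplied 54.6% of their summed level of 97.6 ± 5.15 CPM (SD, n = 3). Its level lay above that of 71.0% of the 13581 genes that passed the filter on low counts. *Nnmt* followed with 26.9% of the sum and lay above 53.7% of tested genes. *Gamt* and *Tpmt* gave 8.26% and 8.14%, *Pemt* 1.98% and *Hnmt* 0.190%. With TGFβ the summed level was 47.7 ± 4.61 CPM, of which *Nnmt* supplied 60.8%, and in the combined group it was 44.1 ± 2.66 CPM, of which *Nnmt* supplied 58.7%. With the inhibitor alone the sum was 52.3 ± 2.77 CPM. Leaving *Inmt* out, the sums of the remaining 5 were 44.3 ± 3.66 CPM in the controls, 37.2 ± 3.25 with the inhibitor, 47.7 ± 4.61 with TGFβ and 44.1 ± 2.66 in the combined group, so most of the drop in the sum was carried by *Inmt*.

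**Figure D1:**
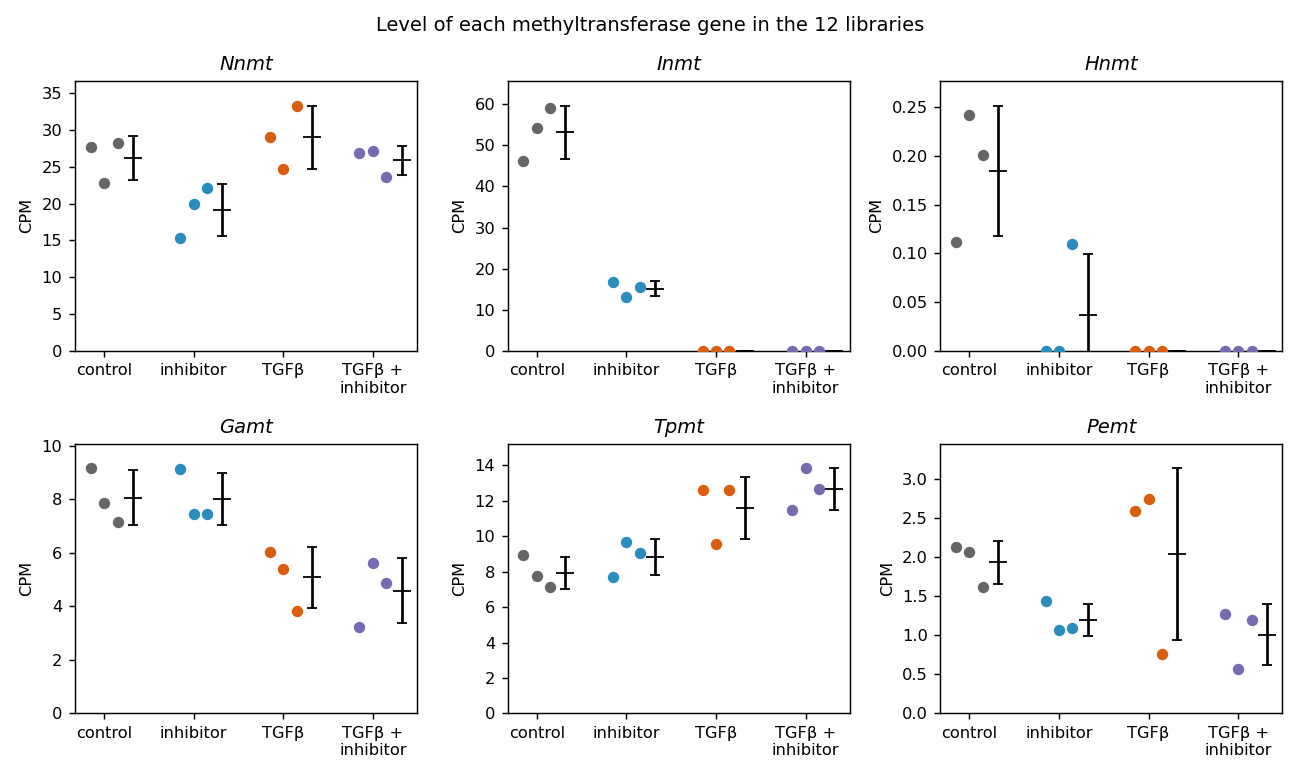
Level of each of the 6 transcripts in CPM (vertical axis, starting at 0) in the 12 libraries, by group; points are libraries in the order of their replicate numbers, and the bar beside them is the mean with its SD (n = 3), which for *Hnmt* is shown down to 0 only. *Inmt* is at 0 in all 6 libraries with TGFβ, while *Nnmt* stays between 15.3 and 33.3 CPM in all 12.

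Windows around transcription starts were found for 5 of the 6 members, all but *Nnmt*. Those of *Inmt*, *Gamt* and *Tpmt* are shown to set the transcript that was lost with TGFβ beside 1 that fell and 1 that rose less far. Each runs from 250 bases before to 50 bases after the start, on the minus strand of GRCm38.p6, as given by RefSeq, at chr6:55174941-55175240 for *Inmt*, chr10:80260963-80261262 for *Gamt* and chr13:47043168-47043467 for *Tpmt*. Capitals mark matches on either strand to CAGAC (the SMAD box, read as GTCTG on the other strand), CACCTG (an E-box bound by ZEB and SNAI factors) and TATAAA (the TATA box).
Inmt: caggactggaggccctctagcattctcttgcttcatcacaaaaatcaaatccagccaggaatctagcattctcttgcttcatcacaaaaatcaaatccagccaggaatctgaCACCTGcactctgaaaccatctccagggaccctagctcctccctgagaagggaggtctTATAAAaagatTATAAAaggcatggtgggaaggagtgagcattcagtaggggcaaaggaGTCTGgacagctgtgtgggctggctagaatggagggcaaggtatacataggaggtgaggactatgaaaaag
Gamt: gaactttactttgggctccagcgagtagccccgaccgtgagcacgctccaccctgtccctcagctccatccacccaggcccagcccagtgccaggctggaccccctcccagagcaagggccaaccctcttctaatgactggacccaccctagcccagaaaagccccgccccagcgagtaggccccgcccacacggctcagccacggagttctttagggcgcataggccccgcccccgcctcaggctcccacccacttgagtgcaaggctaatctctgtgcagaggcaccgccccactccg
Tpmt: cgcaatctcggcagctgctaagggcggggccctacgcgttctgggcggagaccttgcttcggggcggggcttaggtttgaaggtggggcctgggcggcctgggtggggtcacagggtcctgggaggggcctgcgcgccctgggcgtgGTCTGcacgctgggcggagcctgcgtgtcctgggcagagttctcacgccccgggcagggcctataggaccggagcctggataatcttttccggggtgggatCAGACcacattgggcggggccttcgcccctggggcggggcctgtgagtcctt
The *Inmt* window has a G+C content of 47.7%, below the 52.7% median of 32851 mouse windows of the same length, whereas those of *Gamt* and *Tpmt* have 66% and 69.7%. It holds 2 TATAAA matches, which begin 80 and 69 bases before the start, a CACCTG match that begins 138 bases before it, 1 CAGAC match on the opposite strand, and a direct repeat of 46 bases. The *Tpmt* window holds 2 CAGAC matches, and none of these 3 motifs occurs in the *Gamt* window. CAGAC occurs in 49.6% of all windows, CACCTG in 20.2% and TATAAA in 13.6%. The AP-1 motif TGANTCA, found in 7.81% of windows, is in none of the 3. A match of letters is a description of the sequence only.

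*Inmt* (ENSMUSG00000003477, chromosome 6) fell to 0 with TGFβ and also fell with the inhibitor alone. Its counts in control replicates 1, 2 and 3 were 415, 448 and 587, or 46.3, 54.2 and 59.2 CPM. With the inhibitor alone they were 151, 111 and 143, or 16.6, 13.1 and 15.6 CPM. In all 3 TGFβ libraries and all 3 combined libraries the count was 0. Every control library was thus above every inhibitor library, and every library without TGFβ was above every library with it.

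In place of the count of 0, a floor of 3 counts over the group was used, 0.129 CPM with TGFβ and 0.119 CPM in the combined group. At those floors *Inmt* was 413-fold lower with TGFβ than in the controls (adjusted p = 6.84e-11, edgeR's quasi-likelihood test with Benjamini-Hochberg adjustment). It was 127-fold lower in the combined group than with the inhibitor alone (adjusted p = 9.07e-10), and 447-fold lower there than in the controls (adjusted p = 3.49e-11). The exact 95% counting intervals of these ratios reach down to 335-fold, 103-fold and 363-fold, and cover counting error only. *Inmt* stood alone in this respect. Of 11034 genes with at least 100 counts over the 3 controls, 1 had no count in any TGFβ library, and it was *Inmt*, which also had none in any combined library. The call held under all 12 alternatives tried, including each left-out library.

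The inhibitor alone lowered *Inmt* 3.52-fold, from 53.2 ± 6.48 to 15.1 ± 1.80 CPM (SD, n = 3; log2 fold change -1.81 ± 0.17 SE, adjusted p = 9.04e-06 by edgeR). The 95% interval of this log2 change ran from -2.17 to -1.46, and leaving out any 1 library gave values within the range of all alternatives, -1.90 to -1.72. Whether the inhibitor changed *Inmt* further when TGFβ was present could not be measured, since both groups with TGFβ were at 0. For the same reason the interaction, the inhibitor's effect with TGFβ minus its effect without, gives no value for this gene.

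Other measures moved beside *Inmt*. The summed level of the 11 proximal tubule markers was 1241 to 1312 CPM in the controls, 1175 to 1241 with the inhibitor, 143 to 160.2 with TGFβ and 163 to 178 in the combined group, with 4 of the 11 passing the filter. Without TGFβ most of it was *Aqp1*, the water channel of the proximal tubule. With TGFβ and in the combined group most of it was *Lrp2*, an endocytic receptor of that segment, at 80.1 and 119 CPM. Without TGFβ the *Lrp2* means were 105 CPM (control) and 86.9 CPM (inhibitor alone), both below the combined group. *Mme* fell from 146 CPM (control) and 121 CPM (inhibitor alone) to 42.8 CPM (TGFβ) and 37.2 CPM (combined). Of the 4 tested, 3 were called lower with TGFβ against control. For combined against inhibitor 1 was called higher and 2 lower. The summed level of 10 fibroblast markers was 97.4 to 131 CPM in the controls and 18.5 to 23.9 with the inhibitor. It was 621 to 691 with TGFβ and 99.3 to 132 in the combined group. *Postn* stood at 71.7, 2.75, 484 and 70.6 CPM in the same order, most of that sum except with the inhibitor alone. *Col1a1* stood at 4.54, 3.60, 165 and 38.4 CPM. *Islr* went the other way with TGFβ, at 34.6, 14.9, 1.73 and 2.05 CPM. Of the 5 fibroblast markers that passed the filter, 4 rose and 1 fell with TGFβ. The summed level of 14 loop and distal tubule markers was 749 to 822 CPM in the controls and 786 to 813 with the inhibitor. It was 567 to 938 with TGFβ and 510 to 540 in the combined group. With TGFβ 3 of the 6 tested rose, *Krt8* from 62.6 to 288 CPM, and 2 fell. The sum of 8 immune markers, mostly *Csf1r*, was 74.2 to 79.1, 59.9 to 71.3, 43.5 to 58.5 and 25.8 to 31.6 CPM in the same order. That of 8 endothelial markers was at most 5.14 CPM. Mitochondrially encoded transcripts made up 11.3 to 12.4% of counts with the inhibitor alone and 7.05 to 8.08% in the controls. The part of these measures in the *Inmt* result was not tested, and in bulk libraries fewer cells with the transcript and less transcript per cell cannot be told apart.

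Over the whole profile of 12 libraries, the genes most like *Inmt* were *Ackr3*, an atypical chemokine receptor, *Aqp1* and *Mgp*, a matrix protein that restrains calcification. Likeness was measured as the root mean square difference of log2 CPM after each gene was centred on its own mean, and it came to 0.768, 0.824 and 0.938 for the 3, against a median of 3.25 over all tested genes. All 3 kept some counts with TGFβ. *Ackr3* stood at 61.5 CPM in the controls, 39.8 with the inhibitor, 1.25 with TGFβ and 0.857 in the combined group. *Aqp1* stood at 1013, 995, 25.2 and 11.5 CPM in the same order, and *Mgp* at 17.9, 11.7, 0.154 and 0.237.

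*Nnmt* (ENSMUSG00000032271, chromosome 9), whose enzyme the inhibitor blocks, was expressed in every library and was not called in response to TGFβ. Control replicates 1, 2 and 3 had 27.7, 22.8 and 28.2 CPM, from 248, 188 and 280 counts. TGFβ replicates had 29.1, 24.7 and 33.3 CPM, the last from 87 counts in the shallowest library. Control and TGFβ libraries overlapped, and the log2 fold change was 0.12 ± 0.16 SE (adjusted p = 0.609 by edgeR), with a 95% interval from -0.22 to 0.45, that is from 0.860-fold to 1.37-fold.

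With the inhibitor alone *Nnmt* was at 15.3, 20.0 and 22.2 CPM, from 139, 169 and 203 counts, and every one of these libraries was below every control. The log2 fold change was -0.45 ± 0.16 SE, or 1.37-fold lower, and did not pass the adjusted threshold in the fit of all 4 groups (adjusted p = 0.0907 by edgeR). It passed in a fit of the control and inhibitor libraries alone (adjusted p = 0.0174), in which the spread is estimated from these 6 libraries. The combined group, at 26.9, 27.2 and 23.6 CPM, lay above every inhibitor library. That rise, 1.35-fold (log2 fold change 0.44 ± 0.16 SE), was called with an adjusted p of 0.0396 by edgeR. The call ended without inhibitor replicate 1 (0.192), inhibitor replicate 2 (0.0730), combined replicate 1 (0.105) or combined replicate 2 (0.103), by DESeq2 (0.0531), with library size alone (0.0703) and with counts thinned to the shallowest library (0.451).

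In order of their means, *Nnmt* stood at 29.0 ± 4.29 CPM with TGFβ, 26.2 ± 3.01 in the controls, 25.9 ± 1.96 in the combined group and 19.2 ± 3.51 with the inhibitor alone. No difference among the first 3 groups was called. Combined and TGFβ libraries differed by a log2 value of -0.14 ± 0.16 SE (adjusted p = 0.643 by edgeR), and combined and control libraries by -0.02 ± 0.16 SE (adjusted p = 0.945). The inhibitor's effect with TGFβ minus its effect without was 0.32 ± 0.23 SE on the log2 scale (adjusted p = 0.681 by edgeR), with a 95% interval from -0.16 to 0.79.

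The genes most like *Nnmt* over the 12 libraries were *Hspd1*, a mitochondrial chaperonin, *Psmd14*, a subunit of the proteasome, and *Dennd2c*, with root mean square differences of 0.0930, 0.120 and 0.121 against a median of 0.442. *Nnmt* itself varied by 0.277 around its mean. *Hspd1* stood at 72.5 CPM in the controls, 52.5 with the inhibitor, 75.7 with TGFβ and 75.4 in the combined group. That it was lowest with the inhibitor alone follows from its choice by likeness to *Nnmt*.

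*Hnmt* (ENSMUSG00000026986, chromosome 2) was at the limit of detection. The 3 controls had 1, 2 and 2 counts, or 0.112, 0.242 and 0.202 CPM, inhibitor replicate 3 had 1 count, and the other inhibitor libraries and all libraries with TGFβ had 0. The gene did not pass the filter on low counts and was not part of the fit. For TGFβ against control an exact two-sided permutation test gave p = 0.1, the smallest that 3 against 3 libraries allow. The counting interval of that ratio ran from 0 to 1.28, so a difference was not detectable at this depth.

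*Gamt* (ENSMUSG00000020150, chromosome 10), which completes creatine synthesis, was lower in the libraries with TGFβ. Controls had 9.15, 7.87 and 7.16 CPM, and inhibitor libraries 9.14, 7.45 and 7.43 CPM, from 63 to 83 counts each. TGFβ libraries had 6.03, 5.40 and 3.83 CPM, the last from 10 counts, and combined libraries 3.24, 5.62 and 4.89 CPM. All 6 libraries with TGFβ were below all 6 without it.

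For *Gamt*, the fall was called in the combined group against the inhibitor alone (1.75-fold, log2 fold change -0.80 ± 0.25 SE, adjusted p = 0.0162 by edgeR) and against the controls (1.76-fold, -0.81 ± 0.25 SE, adjusted p = 0.0173). TGFβ alone against control gave -0.60 ± 0.25 SE and was not called (adjusted p = 0.0720). Averaged over both inhibitor states, a contrast added after the data were seen, TGFβ lowered *Gamt* 1.62-fold (-0.70 ± 0.18 SE, adjusted p = 0.00285 by edgeR), and no alternative ended that call. The inhibitor alone gave -0.01 ± 0.24 SE (adjusted p = 0.993), with a 95% interval from -0.50 to 0.49. The first call ended without inhibitor replicate 1 (0.0731) or combined replicate 1 (0.0954), and the second without control replicate 1 (0.0759) or combined replicate 1 (0.0919).

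*Tpmt* (ENSMUSG00000021376, chromosome 13) was higher in the libraries with TGFβ. Controls had 8.93, 7.75 and 7.16 CPM, and inhibitor libraries 7.71, 9.70 and 9.06 CPM. TGFβ libraries had 12.6, 9.56 and 12.6 CPM, from 117, 108 and 33 counts, and combined libraries 11.5, 13.8 and 12.7 CPM. TGFβ libraries were all above the controls, and combined libraries all above both groups without TGFβ, whereas TGFβ replicate 2 lay below inhibitor replicate 2.

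For *Tpmt*, TGFβ against control was called at 1.44-fold (log2 fold change 0.52 ± 0.20 SE, adjusted p = 0.0470 by edgeR), combined against inhibitor at 1.43-fold (0.52 ± 0.19 SE, adjusted p = 0.0406) and combined against control at 1.59-fold (0.67 ± 0.19 SE, adjusted p = 0.0119). Averaged over both inhibitor states the TGFβ effect was 0.52 ± 0.14 SE (adjusted p = 0.00408 by edgeR), a contrast added after the data were seen, and thinned counts ended that call (0.145). The inhibitor alone gave 0.15 ± 0.20 SE (adjusted p = 0.731). The call of TGFβ against control was a narrow one, which 10 of 12 alternatives ended. Among these were leaving out control replicate 2 (0.113) or 3 (0.159) or TGFβ replicate 1 (0.171) or 3 (0.0902), DESeq2 (0.0864) and library size alone (0.102). That of combined against inhibitor was likewise ended by 10 of 12, among them leaving out any 1 of the inhibitor replicates 1 (0.139), 2 (0.0541) and 3 (0.0735) or of the combined replicates 2 (0.119) and 3 (0.0787). That of combined against control ended without control replicate 3 (0.0603) or combined replicate 2 (0.0527). The gene overlaps *Kdm1b* on the opposite strand, and the strand setting of the counting is not given in the sources used here. *Kdm1b* had means of 4.26 CPM (control) and 4.19 CPM (TGFβ), a log2 fold change of -0.07 (adjusted p = 0.882).

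*Pemt* (ENSMUSG00000000301, chromosome 11) was the lowest of the 5 tested transcripts. Controls had 2.12, 2.06 and 1.61 CPM from 19, 17 and 16 counts, and inhibitor libraries 1.43, 1.06 and 1.09 CPM from 13, 9 and 10. TGFβ libraries had 2.59, 2.75 and 0.765 CPM from 24, 31 and 2 counts, and combined libraries 1.27, 0.562 and 1.19 CPM from 11, 5 and 9. Both groups with the inhibitor were below all controls, and below TGFβ replicates 1 and 2, whereas TGFβ replicate 3 fell among them. No comparison was called. The inhibitor gave a log2 fold change of -0.68 ± 0.46 SE without TGFβ (adjusted p = 0.432 by edgeR) and -1.18 ± 0.47 SE with it (adjusted p = 0.125). Averaged over both TGFβ states it gave -0.93 ± 0.33 SE (adjusted p = 0.0585), and this average passed without TGFβ replicate 3 (-1.04, adjusted p = 0.0277) and with library size alone (-0.97, adjusted p = 0.0445). That averaged contrast was added after the data were seen.

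The closest profiles to the other 3 tested members were as follows. For *Gamt* they were *Gm32618*, *Klhl14* and *Zfp30*, a zinc finger gene, with root mean square differences of 0.145, 0.149 and 0.151. For *Tpmt* they were *Fut10*, of the fucosyltransferase family, *Zrsr2*, a splicing factor, and *Bms1*, a ribosome assembly factor, at 0.108, 0.111 and 0.113. For *Pemt* they were *Xdh*, which encodes xanthine dehydrogenase, *Sorbs3* and *Taf6l*, at 0.252, 0.258 and 0.259. *Xdh* stood at 54.2 CPM in the controls, 37.9 with the inhibitor, 49.5 with TGFβ and 27.8 in the combined group. Its lower level in both groups with the inhibitor follows from its choice by likeness to *Pemt*, for which no comparison was called.

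Counted by comparison, 5 of the 6 members were tested. With TGFβ against control 2 were called, *Inmt* down and *Tpmt* up, where 36.5% of all tested genes were called. With the inhibitor against control 1 was called, *Inmt* down, against 8.27% of all genes. Between the combined and the TGFβ group none was called by edgeR or by DESeq2, against 10.4% of all genes, and 1, *Pemt*, had an unadjusted p under 0.05 in edgeR. Between the combined and the inhibitor group 4 were called, *Nnmt* and *Tpmt* up and *Inmt* and *Gamt* down, against 36.3%. Between the combined group and the controls 3 were called, *Tpmt* up and *Inmt* and *Gamt* down, against 31.8%. No interaction was called by either tool, and none had an unadjusted p under 0.05, against 1.11% of all genes called. *Inmt*, at 0 in all libraries with TGFβ, could not be called in the interaction or between the combined and the TGFβ group. Those counts therefore rest on the 4 members with counts in every group. In the average TGFβ effect, where 49.9% of all genes were called, *Nnmt* joined the other 3 at a log2 value of 0.28 ± 0.11 SE (adjusted p = 0.0491 by edgeR). That call ended when any 1 control or combined library, inhibitor replicate 1 or 2, or TGFβ replicate 1 or 3 was left out, with adjusted p-values from 0.0555 to 0.168, and also with library size alone (0.140), no filter (0.0681), thinning (0.177) and DESeq2 (0.0806). In the average inhibitor effect, where 18.5% of all genes were called, none of the 4 members with counts in every group was, and *Nnmt* had an adjusted p of 0.0769. *Nnmt* passed there with library size alone (0.0428) and without TGFβ replicate 2 (0.0198). These shares read on counts of at most 5 genes, and comparisons with the same controls share their error.

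**Figure D2:**
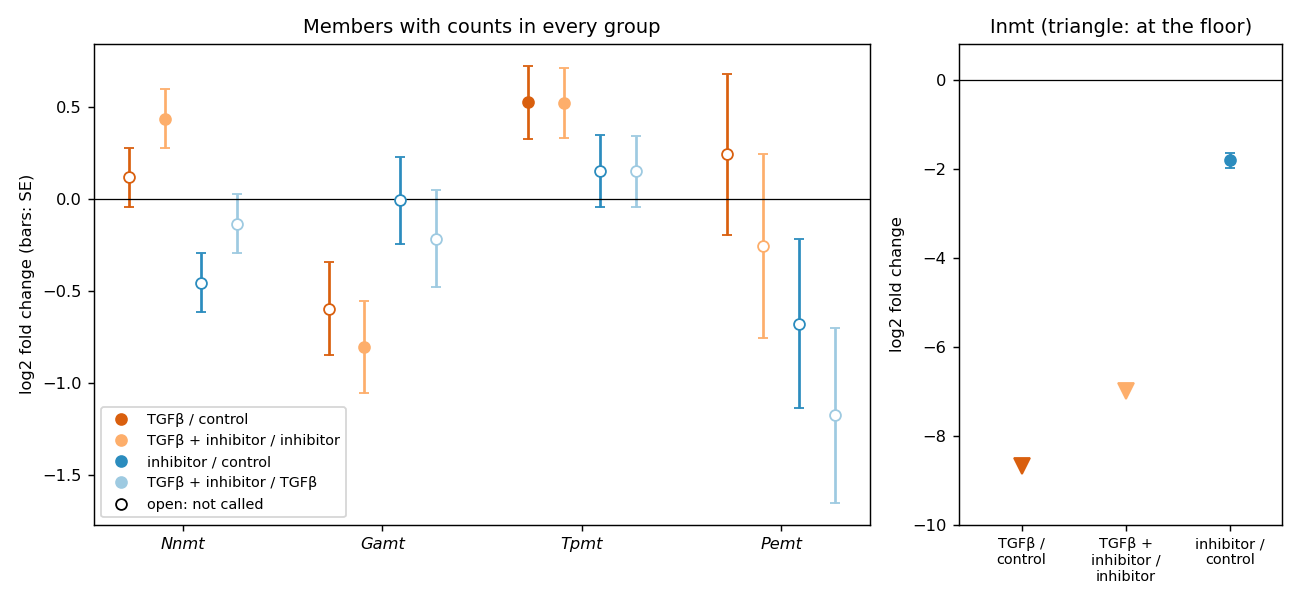
Left, log2 fold change with its SE (vertical axis) of the 4 members with counts in every group, in 4 comparisons given by colour, with filled points for those called at an adjusted p under 0.05. Right, the same for *Inmt* on a longer axis. Triangles stand at the floor of 3 counts over the group and mark falls of 413-fold and 127-fold at that floor. On the left, *Gamt* lies below 0 and *Tpmt* above 0 in both comparisons that add TGFβ.

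Among 17 other methyltransferase genes 7 were tested, and TGFβ lowered 1 of them against control. *Mettl7a1*, a membrane methyltransferase gene, fell 5.29-fold with TGFβ, from 52.2 ± 5.70 to 10.0 ± 0.636 CPM (adjusted p = 5.66e-10 by edgeR). The inhibitor alone was not called on it (log2 fold change 0.34, adjusted p = 0.114). The combined group, at 9.82 ± 1.45 CPM, was 6.74-fold below the inhibitor alone (adjusted p = 4.29e-11). The median log2 change of the 7 was 0.16 with TGFβ, against 0.02 over all tested genes. The counts of called genes in this list and in those that follow stand beside the 36.5% of all tested genes called with TGFβ and the 8.27% called with the inhibitor, and nothing particular to a list is read from them.

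The supply and clearance of the shared methyl donor was measured by 13 tested genes of 15. With TGFβ 2 rose and 1 fell. *Ahcy*, which clears S-adenosylhomocysteine, rose 2.55-fold from 2.76 ± 0.561 to 7.01 ± 2.23 CPM (adjusted p = 0.00221 by edgeR), and *Adk*, which removes the adenosine it releases, rose 1.45-fold (adjusted p = 0.0140). The *Adk* call was lost on removal of control replicate 2 (0.0602) or TGFβ replicate 2 (0.0704). The related *Ahcyl2* fell 2.29-fold with TGFβ (adjusted p = 4.60e-07) and rose 1.43-fold with the inhibitor alone (adjusted p = 0.00767). With counts thinned to the shallowest library the inhibitor's log2 value for *Ahcyl2* was 0.22 instead of 0.52 and was not called (0.780), and the TGFβ calls of *Ahcy* (0.0743) and *Adk* (0.278) ended too. A fit of the control and TGFβ libraries alone also ended the *Adk* call (0.0743).

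Around the NNMT reaction 12 of 20 genes of nicotinamide and 1-methylnicotinamide turnover were tested. With TGFβ 3 were called, all lower, beside the 36.5% of all tested genes called. Over the alternatives the number called in this list ran from 2 to 5. *Nampt*, which returns nicotinamide to NAD and so shares its substrate with NNMT, fell 2.54-fold from 172 ± 2.60 to 67.4 ± 14.4 CPM (adjusted p = 9.01e-07 by edgeR). *Aox1*, an aldehyde oxidase that oxidizes 1-methylnicotinamide, fell 5.43-fold from 4.80 ± 1.01 to 0.869 ± 0.487 CPM (adjusted p = 0.000361), a call that thinning ended (0.164). *Bst1*, which hydrolyses NAD, fell 1.43-fold with TGFβ (adjusted p = 0.00208) and 1.96-fold with the inhibitor alone (adjusted p = 3.30e-05), and was the 1 gene of this list called in the latter.

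Around GAMT, TPMT and HNMT fewer genes could be tested. Of 8 genes listed under creatine 4 were tested. *Gatm*, which makes the guanidinoacetate that GAMT uses, rose 1.60-fold with TGFβ from 14.4 ± 2.92 to 23.3 ± 3.79 CPM (adjusted p = 0.0148 by edgeR). *Gamt* was lower in that comparison but was not called (adjusted p = 0.0720 by edgeR). In the combined group against the inhibitor alone, where *Gamt* was called, *Gatm* was not, at 17.5 ± 3.73 against 14.7 ± 2.93 CPM. The *Gatm* call ended without control replicate 2 (0.0696) or 3 (0.0702). Of 9 genes of thiopurine and purine salvage 8 were tested and 2 rose with TGFβ, as *Tpmt* did. They were *Hprt*, which activates thiopurines and salvages purines, 1.43-fold (adjusted p = 0.00111), and *Impdh1*, of guanine nucleotide synthesis, 2.09-fold (adjusted p = 4.02e-06). Of 9 histamine genes 2 were tested, and *Aldh7a1*, an aldehyde dehydrogenase, fell 1.38-fold with TGFβ (adjusted p = 0.00999). Removal of TGFβ replicate 1 ended the *Aldh7a1* call (0.0504), and thinning ended those of *Gatm* (0.0737), *Hprt* (0.0860) and *Aldh7a1* (0.149).

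All 14 genes of phosphatidylcholine and phosphatidylethanolamine synthesis were tested, and with TGFβ 1 rose and 5 fell, against 36.5% of all tested genes called. Over the alternatives the number called in this list ran from 3 to 8. *Pcyt1b*, a form of the enzyme that controls the choline route to phosphatidylcholine, rose 3.01-fold from 5.29 ± 0.392 to 15.8 ± 5.85 CPM (adjusted p = 0.000138 by edgeR). *Chka*, the choline kinase at the start of that route, fell 1.49-fold with TGFβ (adjusted p = 0.000232), 1.35-fold with the inhibitor alone (adjusted p = 0.0118) and by 0.59 on the log2 scale in the combined group against TGFβ (adjusted p = 0.00127). The inhibitor call of *Chka* ended without control replicate 1 (0.0592), control replicate 3 (0.0599) or inhibitor replicate 3 (0.0512) and with thinning (0.137), and that against TGFβ in a fit of those 2 groups alone (0.0517). *Chpt1*, at the end of the route, fell 1.48-fold with TGFβ (adjusted p = 0.000211). The median log2 change of the 14 was -0.22 with TGFβ and 0.06 with the inhibitor, against 0.02 and 0.01 over all tested genes.

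In the combined group against the inhibitor alone, where 36.3% of all tested genes were called, 1 of the 7 other methyltransferases fell, *Mettl7a1*, and 3 rose and 3 fell of the 13 methyl donor genes. Of the 12 nicotinamide genes 3 fell, of the 8 purine genes 3 rose, and of the 14 phospholipid genes 1 rose and 6 fell. The called genes were not all those called with TGFβ against control. *Bst1* was not called here (log2 fold change 0.03, adjusted p = 0.892 by edgeR), and neither was *Adk* (0.27, adjusted p = 0.206). Of the 4 tested genes listed under creatine 2 fell, *Ckmt1*, a mitochondrial creatine kinase, and *Slc22a5*, a carnitine transporter that the list included. Of the 2 histamine genes 1 did, *Aldh7a1*. Of 9 genes around tryptamine and other indoleamines, the substrates of INMT, 1 was tested, *Maoa*, a monoamine oxidase, and it was not called here (log2 fold change -0.27 ± 0.19 SE, adjusted p = 0.276 by edgeR) or with TGFβ against control (-0.34 ± 0.19 SE, adjusted p = 0.175). *Ckmt1* and *Slc22a5* were named after their values were seen, as was *Maoa*. In the combined group against TGFβ, where 10.4% of all tested genes were called, the called genes all fell, and were 2 of the nicotinamide list (*Bst1* and *Pnp*), 1 of the purine list (*Xdh*) and 2 of the phospholipid list (*Chka* and *Etnk2*), where *Pnp*, *Xdh* and *Etnk2* were likewise named after their values were seen. The *Bst1* call (log2 fold change -0.43, adjusted p = 0.0303 by edgeR) was lost in 6 of 12 alternatives. Without TGFβ replicate 2 its log2 value was -0.23 (adjusted p = 0.104), and it also ended without combined replicate 1 (0.0618), 2 (0.109) or 3 (0.0984), with thinning (0.0664) and in a fit of the 2 groups alone (0.178). Over the alternatives the number called ran from 0 to 2 in the nicotinamide list, 0 to 3 in the purine list and 0 to 4 in the phospholipid list. Against the controls, where 31.8% of all tested genes were called, the combined group had 2 rises and 2 falls among the other methyltransferases, 3 falls among the methyl donor genes, 4 among the nicotinamide genes, 2 rises and 2 falls among the purine genes, and 2 rises and 6 falls among the phospholipid genes.

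**Figure D3:**
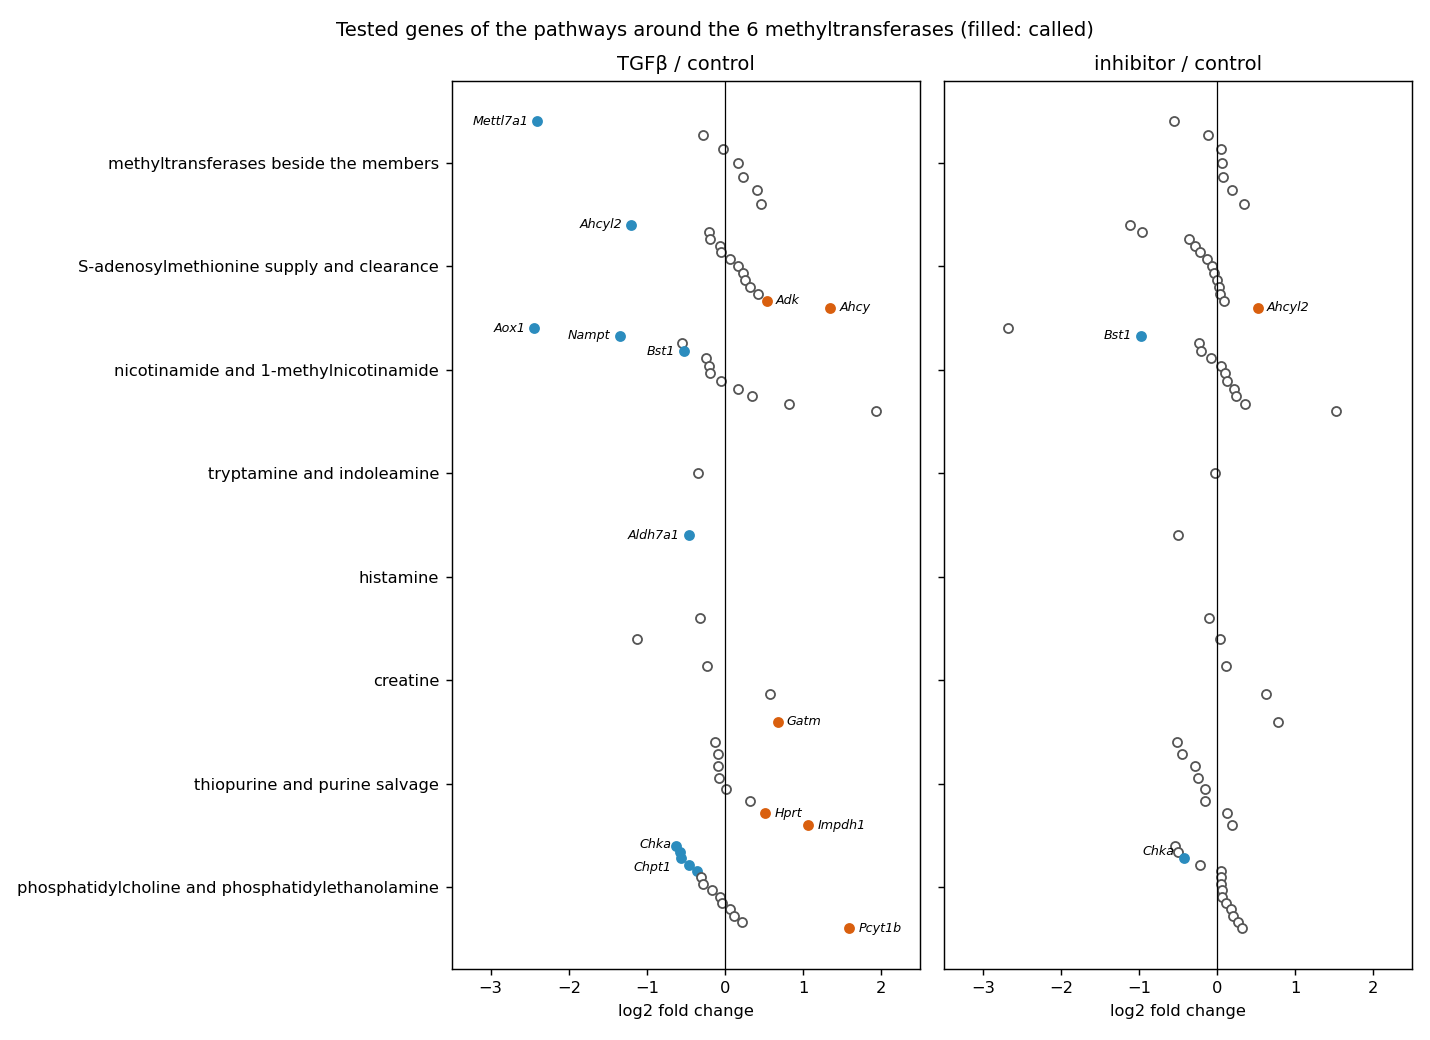
Log2 fold change (horizontal axis) of each tested gene of 8 lists (rows), with TGFβ against control on the left and with the inhibitor against control on the right; filled points were called, orange up and blue down, and open points were not. More points are filled on the left, where *Mettl7a1* and *Aox1* lie lowest and *Pcyt1b* is the highest called gene, and *Ahcyl2* changes side between the panels.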

How the data were processed

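Per the submitters' processing notes, the authors used STAR for alignment and HTSeq for counting. Versions and the strand setting are not given in the sources used here. The notes name the human build GRCh38, while the identifiers are mouse Ensembl genes. The deposited values are raw counts, with 55141 of 55487 identifiers matched to a symbol. Rows that name no gene (no feature, 21.1 to 26.8% of each library) were left out. No 2 replicates were duplicates (chi-square per degree of freedom 3.30 to 44.4). The highest values were those of TGFβ replicate 2, at 44.4 with replicate 1 and 34.4 with replicate 3. TGFβ replicates 1 and 3 had 6.69, so replicate 2 was the most divergent library of its group.

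Counts were filtered with filterByExpr, which left 13581 genes, scaled by TMM and fitted in edgeR 4.0.16 (R 4.3.3, limma 3.58.1) with 4 group means and robust quasi-likelihood F-tests. Genes with a Benjamini-Hochberg adjusted p under 0.05 were called. CPM use TMM-scaled library sizes, log2 CPM a prior count of 3, and the floor is 3 counts over a group. Intervals are 95%. Libraries held 2584117 to 11866903 counts, and the biological coefficient of variation was 0.227 in the TGFβ group and 0.0657 to 0.111 in the others. In simulated data for TGFβ against control, few genes were changed and all groups had the same spread, unlike in these libraries. There 2-fold changes were recovered in 54.4% of 68 genes and 4-fold changes in 86.6% of 67. These rates may not hold for the measured comparison. DESeq2 1.42.0 was an alternative. The 6 members and the gene lists were chosen with earlier results of these data known. Named beside the members were up to 3 genes per list with the smallest adjusted p among those called for TGFβ against control, and the 3 tested genes most like each tested member. A few genes were left out of the text.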

Additional observations from a re-analysis of the deposited data

How the results depend on the processing

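Alternatives were scaling by library size alone, no filter, DESeq2, a replicate block, counts thinned to the shallowest library, a fit of the compared groups alone (not for the interaction), and each library left out. *Inmt* kept every call in all of them. Members called for TGFβ against control came to 1 instead of 2 with no filter, the block, thinning, DESeq2 and the groups alone, and 1 to 2 with a library left out. For combined against inhibitor they came to 2 instead of 4 with library size alone and with DESeq2, 3 with no filter and with the block, 1 with thinning, and 1 to 3 with a library left out. For combined against control there was 1 instead of 3 with thinning, and 2 to 3 with a library left out. For inhibitor against control, the groups alone gave 2 instead of 1. In these 6 comparisons no other count of called members differed. Thinning ended the *Gamt* calls at larger log2 values, -1.89 for combined against inhibitor (adjusted p = 0.0607 in edgeR) and -1.92 for combined against control (0.0656), and the *Tpmt* calls at 0.97 for TGFβ against control (0.255) and 1.47 for combined against control (0.0822). Library size alone called *Gamt* with TGFβ (0.0382) and ended the *Tpmt* call there (0.102). Signs turned only for uncalled log2 values. *Tpmt* in the interaction came to 0.037 with library size alone, 0.020 with no filter and 0.020 with DESeq2. With thinning *Nnmt* came to 0.25 for combined against control and -0.038 in the interaction. With a library left out, *Gamt* ran from -0.13 to 0.095 for inhibitor against control, from -0.37 to 0.012 for combined against TGFβ and from -0.34 to 0.036 in the interaction. *Nnmt* ran from -0.11 to 0.039 for combined against control, *Tpmt* from -0.12 to 0.11 in the interaction, and *Pemt* from -0.46 to 0.055 for combined against inhibitor and from -0.13 to 0.13 in the average TGFβ effect. The cause was not tested. Of 350 recomputed member values in the 6 comparisons, 290 kept direction and side of the threshold, 36 lost a call, 2 gained one and 22 turned sign. Of 616 recomputed counts per list, 500 stayed within 1.5 times. The profile likenesses were not recomputed.

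Libraries with the same replicate number shared little of their deviations, with a correlation over 0.1 in 1 of 18 pairs (range -0.08 to 0.20). Pairs with different numbers were not compared, so these values cannot tell whether a number marks a shared culture. With the replicate block *Tpmt* lost its calls for TGFβ against control (adjusted p = 0.0670 in edgeR) and combined against inhibitor (0.0580). Depth limits *Hnmt*, *Pemt* and all values of TGFβ replicate 3, and thinning lowered the counts of called genes, from 4961 to 2571 for TGFβ against control and from 1123 to 291 for the inhibitor. The groups alone gave 2931 for the inhibitor and 408 instead of 1416 for combined against TGFβ. Without TGFβ replicate 2 the interaction had 399 called genes instead of 151. It had 162 without TGFβ replicate 1 and 202 without TGFβ replicate 3.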
